A study of Mus musculus with 5 samples.

Results

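Haemoglobin genes and the red cell enzyme gene Bpgm were examined in mouse hearts at stage E10.5, on 3 control arrays and 2 arrays of the group labelled KO. Of 9 listed symbols, 5 had an annotated probe set among the 23279 named genes of the series. These were the embryonic globins Hba-x, Hbb-bh1 and Hbb-y, the adult-type beta globin Hbb-b1, and Bpgm. The symbols Hba-a1, Hba-a2, Hbb-b2 and Ahsp had none in the annotation used and were not analysed here, so Hbb-b1 alone stood for the adult-type globins. The genes were listed by name with earlier results of these arrays known, and the probe set of a gene was selected on its mean level over the 5 arrays. Each of the 5 genes had a single probe set to choose from.

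The series title names Lrrfip2 and the response to low oxygen in the forming heart as its subject. The labels give the genotype as control or knockout, the stage and the tissue, and state that no treatment was applied. They give no strain, allele, litter or Cre driver, and they do not say whether a sample was 1 heart or several, or whether controls were wild type. P-values therefore measure the spread between these 5 samples, which may be technical. As a check of the labels, the Lrrfip2 level was 7.33, 8.07 and 8.08 in control replicates 1, 2 and 3 and 6.36 and 6.22 in the knockouts. The deleted part of the gene is not known here, so the remaining signal checks the genotype only in so far as the probes lie in it. Over all probe sets, arrays correlated pairwise at 0.986 to 0.996.

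In the mouse embryo the first red cells come from the yolk sac and circulate as large nucleated cells through the beating heart. These primitive cells make haemoglobin from chains that include the alpha-like zeta (Hba-x) and the beta-like beta-h1 (Hbb-bh1) and epsilon-y (Hbb-y). Later, definitive red cells carry adult-type chains, among them the beta-major chain of Hbb-b1, and the embryonic genes are silenced. Bisphosphoglycerate mutase, the product of Bpgm, makes 2,3-bisphosphoglycerate, a small molecule that binds haemoglobin and lowers its affinity for oxygen. In whole hearts, fewer red cells and less globin RNA per cell cannot be told apart. Whether the Hbb-b1 signal of these arrays came from primitive or definitive cells was not tested.

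In the knockout hearts Hbb-b1 was 4.52-fold lower than in controls and Bpgm was 2.02-fold lower, without overlap between the groups for either gene. The embryonic globins were between 1.13-fold and 1.22-fold lower, and every knockout value lay inside the range of the controls. That overlap rests on control replicate 2: without it both knockout values of each embryonic globin lay below the other controls, with log2 differences of -0.52 for Hba-x, -0.45 for Hbb-bh1 and -0.30 for Hbb-y. Without control replicate 3 they were -0.07, -0.04 and -0.06. None of the 5 genes passed an adjusted p of 0.05 in limma, a linear model fitted to all 13967 genes above a dim level. Over all of these genes 0% (0 genes) passed, while 1227 had an unadjusted p under 0.05. Lower levels at that unadjusted p were found for 2 of the 5 genes and for 5.49% of all genes tested. That unadjusted p was 0.05 or more for Hbb-b1 with array weights (0.0567), without knockout replicate 1 (0.0783) and without knockout replicate 2 (0.0524). For Bpgm it was so with array weights (0.14), without control replicate 1 (0.093), knockout replicate 1 (0.169) or knockout replicate 2 (0.109), and with a red cell gene list as zero (0.516). Knockout levels below every control level were found for the same 2 genes and for 13.1% of all genes tested.

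The embryonic globins gave some of the strongest signals on the arrays. Hba-x (Entrez 15126), the zeta chain of the alpha cluster, had log2 RMA levels of 11.63, 11.13 and 12.03 in control replicates 1, 2 and 3. In knockout replicates 1 and 2 it was at 11.15 and 11.46. Both knockout values lay between those of control replicates 2 and 1, so the groups overlapped. The group means were 11.60 ± 0.45 (SD, n = 3) in control and 11.31 ± 0.22 (SD, n = 2) in knockout, a log2 difference of -0.29 ± 0.31 (SE). The limma adjusted p was 0.683.

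Hbb-bh1 (Entrez 15132), the beta-like chain that is made early in primitive red cells, was at 12.26, 11.71 and 12.54 in the controls. Its knockout levels were 11.87 and 12.02, again inside the control range. The difference was -0.22 ± 0.28 (SE), with a limma adjusted p of 0.726. Hbb-y (Entrez 15135), the chain that takes over as primitive cells mature, was at 12.41, 12.09 and 12.58 in the controls. Its knockout levels were 12.12 and 12.27, and the difference was -0.17 ± 0.17 (SE), with a limma adjusted p of 0.659. All 3 embryonic globins were lowest in control replicate 2 and highest in control replicate 3, and both knockout arrays lay between these.

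Hbb-y was the brightest probe set of all on control replicate 3, and the brightest probe sets of the 5 arrays lay between 12.51 and 12.63. Hbb-y spanned 0.48 log2 units over the 5 arrays, Hbb-bh1 0.83 and Hba-x 0.90. Signal close to the top of an array can be compressed, which would make a change look smaller, and whether it was here was not tested.

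**Figure D1:**
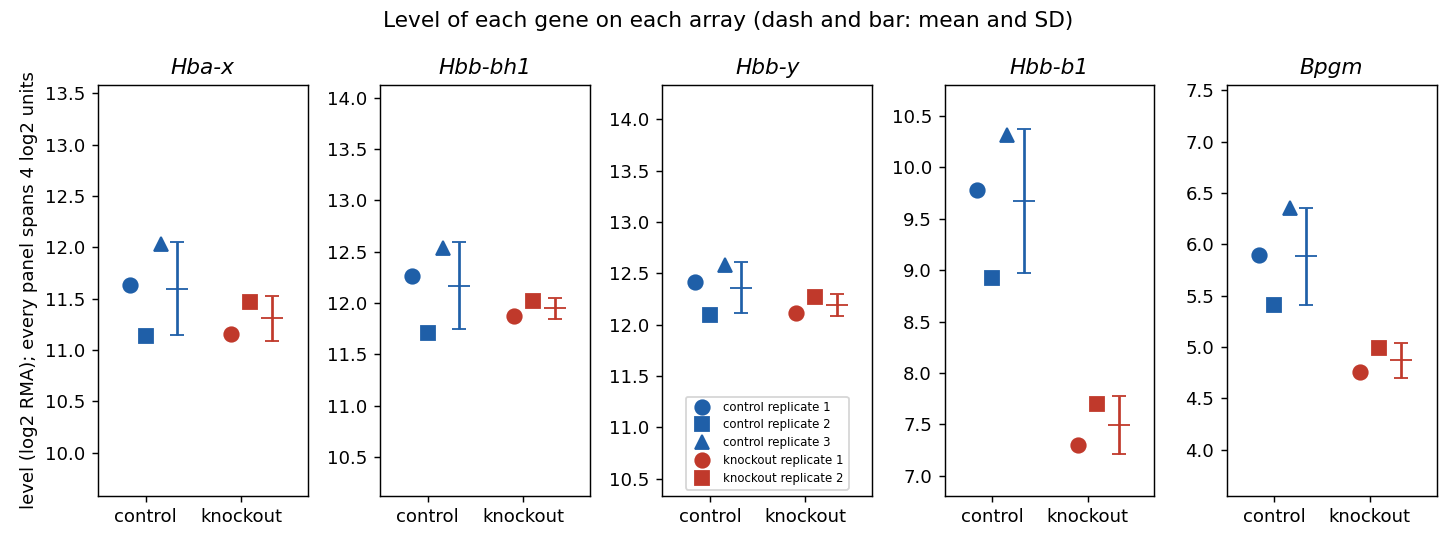
Level of each gene on each array, in log2 RMA units on the vertical axis, for 3 control (blue) and 2 knockout (red) arrays, with a dash and bar for the group mean and SD. Each panel spans the same number of log2 units, so distances can be compared between panels: the knockout points of Hbb-b1 and Bpgm lie below all controls, and those of the 3 embryonic globins lie among them.

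Promoter windows are printed for the genes of this set that the sequence table holds, with an adult-type beta globin beside them, so that their letters can be compared. They come from RefSeq on GRCm38.p6, run 5′ to 3′ on the strand of the gene and hold 250 bases before its start and 50 after. Capitals mark motifs searched on both strands: GATA sites spelled AGATAA or AGATAG or TGATAA or TGATAG, the CACCC box, the CCAAT box, and TATAA. GATA1 and KLF1 are red cell transcription factors known to bind GATA and CACCC sequences. Among 32851 windows of 300 bases in the same table, 29.8% held a GATA site as spelled here, 57.5% CACCC, 37.4% CCAAT and 24.9% TATAA. The table gave windows for Hba-x, Hbb-y and Bpgm among the 5 genes. The adult-type gene shown is Hbb-bs, which is not Hbb-b1 itself. The windows are chr11:32276350-32276649 (plus strand) for Hba-x, chr7:103853158-103853457 (minus strand) for Hbb-y, chr7:103827879-103828178 (minus strand) for Hbb-bs and chr6:34476106-34476405 (plus strand) for Bpgm.
Hba-x: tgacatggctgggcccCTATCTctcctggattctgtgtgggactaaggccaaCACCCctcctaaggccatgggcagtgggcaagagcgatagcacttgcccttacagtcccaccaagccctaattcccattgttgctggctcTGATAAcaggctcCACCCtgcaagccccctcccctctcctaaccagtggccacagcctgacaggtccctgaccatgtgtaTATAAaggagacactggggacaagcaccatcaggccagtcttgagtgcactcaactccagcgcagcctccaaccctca
Hbb-y: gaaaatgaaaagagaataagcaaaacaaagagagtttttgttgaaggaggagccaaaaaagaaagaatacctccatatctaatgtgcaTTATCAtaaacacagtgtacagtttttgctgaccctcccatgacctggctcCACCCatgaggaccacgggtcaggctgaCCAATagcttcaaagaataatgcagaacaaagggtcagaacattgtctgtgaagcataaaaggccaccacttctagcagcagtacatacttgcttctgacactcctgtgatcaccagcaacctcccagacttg
Hbb-bs: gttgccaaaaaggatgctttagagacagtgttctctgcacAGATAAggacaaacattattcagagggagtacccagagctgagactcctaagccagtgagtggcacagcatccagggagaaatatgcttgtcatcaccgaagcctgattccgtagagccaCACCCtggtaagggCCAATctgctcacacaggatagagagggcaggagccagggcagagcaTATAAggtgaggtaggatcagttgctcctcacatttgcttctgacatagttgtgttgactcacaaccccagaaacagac
Bpgm: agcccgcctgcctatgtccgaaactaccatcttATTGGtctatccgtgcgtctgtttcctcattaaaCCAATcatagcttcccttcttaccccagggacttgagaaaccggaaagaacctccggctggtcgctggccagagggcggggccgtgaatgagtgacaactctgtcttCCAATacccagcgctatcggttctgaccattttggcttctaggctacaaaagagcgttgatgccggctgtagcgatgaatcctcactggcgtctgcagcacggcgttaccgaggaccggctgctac

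All 3 globin windows held a GATA site and a CACCC box. The nearest CACCC began at position -95 from the start in Hba-x, -111 in Hbb-y and -90 in Hbb-bs. CCAAT began at -83 in Hbb-y and -76 in Hbb-bs, with no match in Hba-x. TATAA began at -28 in Hba-x and -29 in Hbb-bs, and these letters are not in the Hbb-y window. The Bpgm window differed from the globin windows in its makeup. It held 3 CCAAT matches, at -217, -183 and -76, and no match to the other motifs. These matches describe letters in a window and not bound sites, and the arrays did not measure binding.

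Hbb-b1 (Entrez 15129), the adult-type beta globin, was lower on both knockout arrays. Its log2 levels were 9.78, 8.92 and 10.31 in control replicates 1, 2 and 3, and 7.29 and 7.69 in knockout replicates 1 and 2. The higher knockout value lay 1.23 log2 units below the lowest control. The means were 9.67 ± 0.70 (SD, n = 3) in control and 7.49 ± 0.28 (SD, n = 2) in knockout. The difference of -2.18 ± 0.47 (SE) leaves 22.1% of the control level. The unadjusted p was 0.00942 and the adjusted p 0.415 in limma over all genes.

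Of the 13967 genes tested, 0 had a more negative difference than Hbb-b1. This held under each of the 14 alternatives tried, over which its difference ranged from -2.55 to -1.58. Several of them could not alter this place. Other variance priors leave the differences as they are, shifting a whole array moves all genes alike, and a stricter filter only removes genes. Array weights, quantile normalization, no dim filter and leaving out arrays could alter it. With both knockout arrays kept, the limma adjusted p of Hbb-b1 ranged from 0.314 to 0.757. By size of p Hbb-b1 stood at rank 317, since its control values spread over 1.39 log2 units. Without control replicate 3, the array highest in red cell genes, the difference was -1.86. The targeted gene, Lrrfip2, had a difference of -1.54 on the same scale.

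Adult-type beta globin genes have near-identical copies, and common laboratory strains carry either the pair Hbb-b1 and Hbb-b2 or the pair Hbb-bs and Hbb-bt. The probe set of Hbb-b1 may therefore also read its copies, and the labels do not name the strain of these embryos. Hbb-bs had a probe set of its own, with levels of 4.18, 4.06 and 5.44 in the controls and 2.62 and 3.37 in the knockouts. Its groups did not overlap either, and the difference was -1.56. Its mean over the 5 arrays lay under the dim level of 4.44, so it was not tested.

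**Figure D2:**
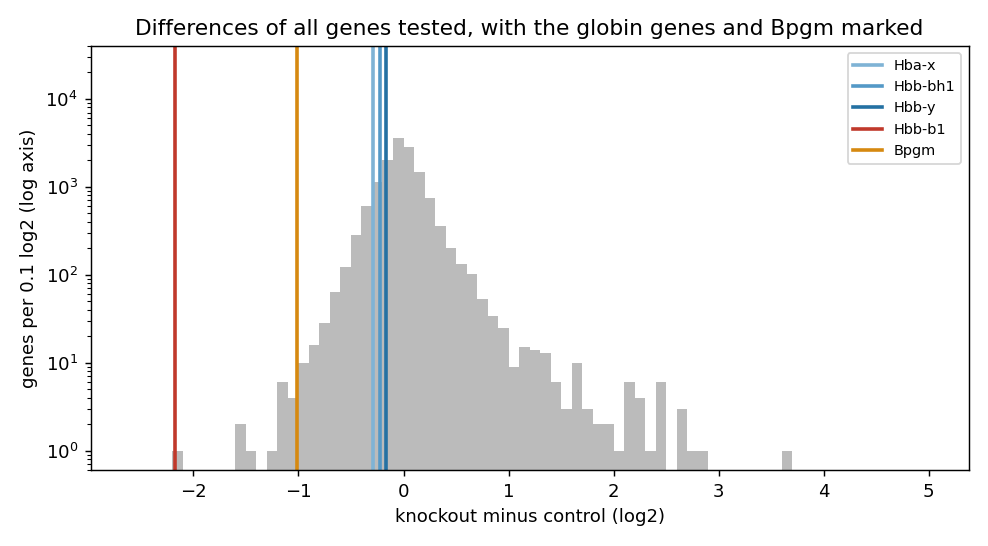
Histogram of knockout minus control differences (log2, horizontal axis) for the 13967 genes tested, with the count per bin on a log axis and a line for each globin gene and Bpgm. The line of Hbb-b1 at -2.18 stands at the lowest edge of the distribution and that of Bpgm at -1.01 in its lower tail. The lines of the 3 embryonic globins lie between -0.29 and -0.17.

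Bpgm (Entrez 12183) was lower on both knockout arrays too. Its levels were 5.89, 5.41 and 6.35 in control replicates 1, 2 and 3, against 4.75 and 4.99 in knockout replicates 1 and 2. The gap between the lowest control and the highest knockout value was 0.42 log2 units. The means were 5.88 ± 0.47 (SD, n = 3) and 4.87 ± 0.17 (SD, n = 2), and the difference was -1.01 ± 0.31 (SE). The unadjusted p was 0.0317 and the adjusted p 0.521 in limma over all genes. Without control replicate 3 it was -0.78. A more negative difference was found for 13 of the genes tested. The knockout levels were close to the dim level of 4.44, where a difference is read from weak signal.

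Because different probe sets cannot be compared by level, embryonic and adult-type globins were compared through their deviations from their own control means. The mean deviation of the 3 embryonic globins was 0.06, -0.40 and 0.34 in control replicates 1, 2 and 3, and -0.33 and -0.13 in knockout replicates 1 and 2. The deviation of Hbb-b1 was 0.11, -0.75 and 0.64 in the controls, and -2.38 and -1.98 in the knockouts. The embryonic and adult-type globins thus moved in the same order over the controls, while of these 4 genes only Hbb-b1 left the control range in the knockouts.

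The embryonic deviation minus that of Hbb-b1 was -0.05, 0.35 and -0.30 in the controls. It was 2.05 and 1.85 in the knockouts, above every control. The shift between the groups was 1.95 log2 units, a 3.86-fold change in the ratio of embryonic to adult-type signal, against an SD of 0.33 between controls. This score treats all probe sets as responding on the same scale. Among the controls, however, Hbb-b1 spanned 1.39 log2 units, Hba-x 0.90, Hbb-bh1 0.83 and Hbb-y 0.48. Whether compressed embryonic signal near the top of the arrays altered the ratio was not tested. Taken gene by gene, the shift was 1.89 for Hba-x, 2.01 for Hbb-y and 1.95 for Hbb-bh1. All of these subtract the same Hbb-b1 deviation, so their likeness follows largely from that shared term. These are scores over genes chosen with results known, so they are described without a p. Leaving out each array in turn gave shifts from 1.80 to 2.13.

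Bpgm stood between these genes. Its deviation minus the embryonic mean was -0.05, -0.08 and 0.13 in the controls, and -0.80 and -0.77 in the knockouts. The shift between the groups was -0.79, against an SD of 0.11 between controls.

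**Figure D3:**
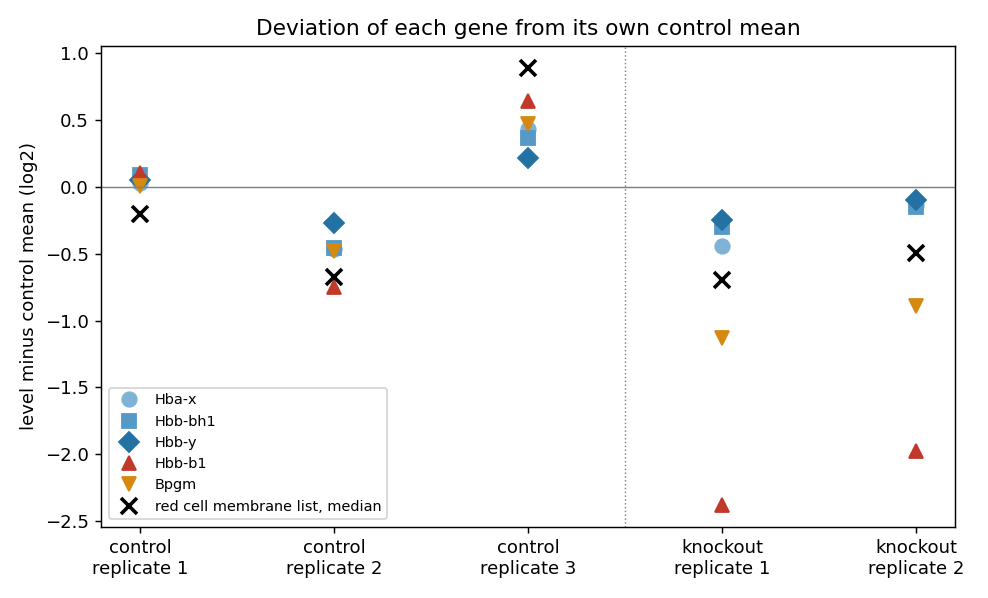
Level minus the control mean of the same gene (log2, vertical axis) on each of the 5 arrays, for the 3 embryonic globins (blue), Hbb-b1 (red), Bpgm (orange) and the median of the red cell membrane list (black crosses). The symbols run from -0.75 (Hbb-b1) to -0.27 (Hbb-y) on control replicate 2 and from 0.22 (Hbb-y) to 0.89 (membrane list) on control replicate 3. On the knockout arrays Hbb-b1 is at -2.38 and -1.98 and Bpgm at -1.13 and -0.89, while the embryonic globins stay between -0.44 and -0.09. The membrane list is at -0.69 and -0.49 there.

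Other red cell genes varied widely between arrays, and most in control replicate 3. A list of 16 genes of the red cell membrane and surface, among them the anion exchanger Slc4a1 and the Rhesus proteins Rhag and Rhd, had 14 measured and tested members. Of these, 13 were lower and 1 higher in the knockouts, 0 had an unadjusted p under 0.05, and the median difference was -0.59. Over all 13967 genes tested, 7594 were lower and 6105 higher, with a median difference of -0.02. Counts of lower and higher genes in the lists that follow are to be read against these. The mean level of the list was 5.97, 5.51 and 6.998 in control replicates 1, 2 and 3 and 5.48 and 5.61 in the knockouts. The median deviations were -0.20, -0.67 and 0.89 in the controls, and -0.69 and -0.49 in the knockouts. Knockout values therefore lay close to control replicate 2 and far from control replicate 3. Slc4a1 itself was at 7.83, 6.82 and 9.34 in the controls and 6.12 and 7.03 in the knockouts, which overlap. Knockout levels below every control were found for 3 of the 14 tested members and for 13.1% of all genes tested. These 3 were Rhag (-1.07), Rhd (-0.55) and Sptb (-0.50). The member with the smallest p was the transferrin receptor Tfrc, at a difference of 0.45.

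Control replicate 2 and knockout replicate 1 had similar levels of red cell membrane genes, with deviations of -0.67 and -0.69. Between these 2 arrays Hba-x differed by 0.02 log2 units, Hbb-y by 0.02 and Hbb-bh1 by 0.16. Hbb-b1 differed by -1.63 and Bpgm by -0.65, knockout replicate 1 minus control replicate 2. Knockout replicate 2, with a membrane deviation of -0.49, differed from control replicate 2 by 0.33 for Hba-x, 0.17 for Hbb-y and 0.31 for Hbb-bh1. It differed by -1.23 for Hbb-b1 and by -0.42 for Bpgm. Relative to the membrane list, the deviation of Hbb-b1 was between -0.25 and 0.31 in the controls and at -1.68 and -1.48 in the knockouts. That of Bpgm was 0.21, 0.19 and -0.42 in the controls and -0.44 and -0.40 in the knockouts, so the groups overlapped for Bpgm on this scale, with a difference of -0.41. Taking the membrane list as the zero of each array, the embryonic globins had differences of 0.31 (Hba-x), 0.38 (Hbb-bh1) and 0.43 (Hbb-y). The median of all genes then rises by 0.60, so against other genes the embryonic globins were still lower.

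**Figure D4:**
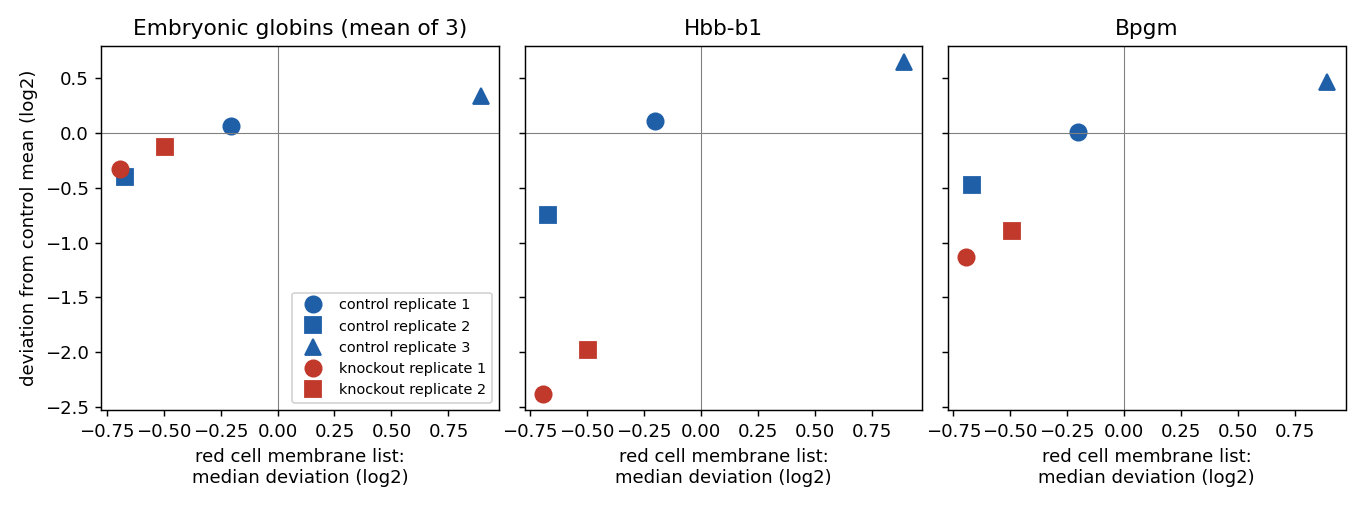
Deviation from the control mean (log2, vertical axis) of the embryonic globins, Hbb-b1 and Bpgm against the median deviation of 14 red cell membrane genes (log2, horizontal axis), with 1 point for each of 3 control (blue) and 2 knockout (red) arrays. For the embryonic globins knockout replicate 1 lies by control replicate 2 and knockout replicate 2 lies between control replicates 2 and 1. Those of Hbb-b1 lie well under all controls, and those of Bpgm less far under.

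Genes of haem synthesis and red cell iron had 12 tested members of 13 listed, of which 11 were lower, 0 with an unadjusted p under 0.05, and a median difference of -0.44. Alad, an early enzyme of the pathway, was at 8.57, 8.47 and 9.08 in the controls and 7.49 and 8.28 in the knockouts. The erythroid first enzyme Alas2 overlapped between the groups, at 7.27, 6.15 and 8.73 against 6.55 and 6.94. Of 14 tested genes of late red cell maturation, 11 were lower, with a median of -0.10 and 1 with an unadjusted p under 0.05 in each direction. The lower one was Fbxo7 (-0.37), and the higher one was Bnip3l (0.77), a mitophagy receptor that clears mitochondria from maturing red cells. Carbonic anhydrase Car2 was at 7.33, 6.54 and 8.59 in the controls and 6.11 and 5.79 in the knockouts, a difference of -1.54. Knockout levels lay below every control for 5 of the 12 haem and iron genes and 4 of the 14 maturation genes. The share among all genes tested was 13.1%. Of the maturation genes 1, Bnip3l, lay above every control.

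Of 19 tested regulators of red cell genes and of the globin switch, 13 were lower and 6 higher, with a median difference of -0.10. Klf1, which activates adult beta globin, was at 5.66, 5.29 and 5.89 in the controls and 5.23 and 5.05 in the knockouts, with a difference of -0.47 and an adjusted p of 0.57 in limma. Its relative Klf2, also made in endothelium, had the smallest p of the list (difference -0.58, unadjusted p 0.0276). Zbtb7a (-0.49) and Tal1 (-0.44) had knockout levels below all controls too. Tal1 was at 5.89, 5.73 and 6.12 in the controls and 5.24 and 5.71 in the knockouts, so its groups were barely apart. Such levels were found for 4 of the 19 regulators and for 13.1% of all genes tested. A lower level at an unadjusted limma p under 0.05 was found for 1 regulator, and for 5.49% of all genes tested. Gata1 was at 5.61, 5.57 and 6.61 in the controls and at 5.79 and 5.78 in the knockouts. Bcl11a, which silences embryonic and fetal globins, had a difference of 0.28, and Sox6, its partner, of 0.04. Both overlapped between the groups.

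Other globin genes and the neighbours of the alpha cluster gave no called difference. Hbq1b, the theta-like gene of the alpha cluster, was at 5.89, 5.55 and 6.98 in the controls and at 5.42 and 5.74 in the knockouts (difference -0.56, limma adjusted p 0.625). Myoglobin, Mb, the oxygen carrier of muscle, had a difference of 0.02, and neuroglobin, Ngb, of -0.11. Hbb-bh2, Hbq1a and Cygb lay under the dim level and were not tested. Hbb-bh2 was at 4.84 in control replicate 3 and between 3.42 and 3.51 on the other arrays. Of 5 genes beside the alpha cluster, 3 were lower and 2 higher, with a median of -0.04. The lowest was Nprl3, whose introns hold alpha-globin enhancers, at -0.29 with overlap between the groups.

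Among 5 tested genes of glycolysis near the bisphosphoglycerate step, 4 were lower, with a median of -0.19 and 0 at an unadjusted p under 0.05. Minpp1, a phosphatase that can remove a phosphate from 2,3-bisphosphoglycerate, was at 9.06, 9.10 and 9.29 in the controls. It was at 9.05 and 9.02 in the knockouts, a difference of -0.11. Pgk1 differed by 0.08. The red cell and liver pyruvate kinase Pklr was at 5.37, 4.73 and 7.02 in the controls and at 4.79 and 5.15 in the knockouts, so the groups overlapped.

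The genes most like Hbb-b1 over the 5 arrays were found by the root mean square difference of deviations from the control mean. They were Car2 (0.53), Slc4a1 (0.63), Hemgn (0.68), Cmtm5 (0.69) and Lrrfip2 (0.70). The nearest of them, Car2, was at -1.38 and -1.70 on knockout replicates 1 and 2, against -2.38 and -1.98 for Hbb-b1. Slc4a1 was at -1.88 and -0.97 on these arrays. The measure takes in the knockout arrays, so genes near Hbb-b1 had to be low there too. In control replicates 1, 2 and 3 Lrrfip2 was at -0.49, 0.24 and 0.25, against 0.11, -0.75 and 0.64 for Hbb-b1. Its likeness to Hbb-b1 thus lay in the knockout arrays and not in the order of the controls. Bpgm had closer neighbours, which were Slc39a8 (0.12), Dhrs11 (0.14), Cmtm5 (0.17), Myo16 (0.20) and Mgst3 (0.21). The embryonic globins spanned less than 1 log2 unit and were not searched.

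Tissue markers showed what else the arrays carried. The 16 heart muscle genes had a mean level between 10.9 and 11.0 on all 5 arrays, with median deviations of -0.01 and -0.13 in knockout replicates 1 and 2. Of these genes 11 were lower, with a median difference of -0.02. An unadjusted limma p under 0.05 was found for 2, both lower, and knockout levels below every control for 5. Among all genes tested these shares were 5.49% and 13.1%. Of 12 tested genes of macrophages and other blood cells, 10 were higher. Their median deviation was 0.45 on knockout replicate 1 and 0.04 on knockout replicate 2, against -0.06 to 0.10 in the controls. All 13 tested genes of liver and gut endoderm were higher, with a median deviation of 1.60 on knockout replicate 2 and -0.002 on knockout replicate 1. Of 13 endothelial and endocardial genes 9 were higher, with a median difference of 0.21. The part of these cells in the Hbb-b1 and Bpgm values was not tested. Hbb-b1 was at -2.38 on the array without endoderm signal and at -1.98 on the array with it. These arrays also differed in red cell membrane and other blood cell signal, so the pair cannot tell these apart.

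**Figure D5:**
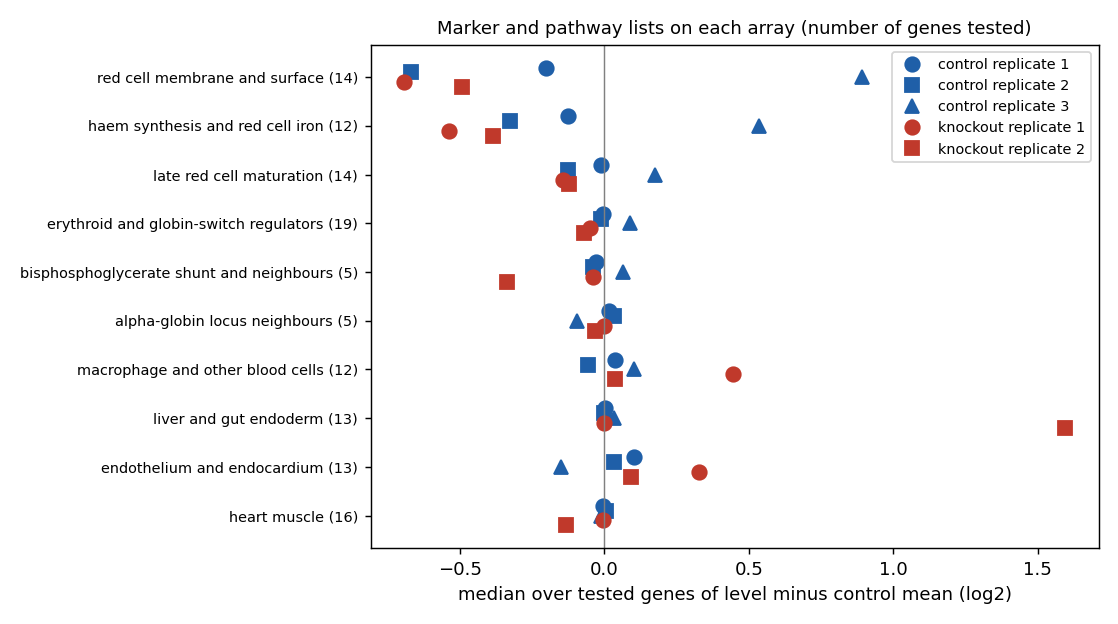
Median over the tested genes of each list of the level minus the control mean (log2, horizontal axis), for 3 control (blue) and 2 knockout (red) arrays, with the number of genes tested in brackets. Red cell membrane genes spread most among the controls, from -0.67 to 0.89. Endoderm genes stand apart on knockout replicate 2 at 1.60, and macrophage and other blood cell genes on knockout replicate 1 at 0.45.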

How the data were processed

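Total RNA (20 ng) of embryonic hearts was amplified and biotin-labelled for Affymetrix arrays, per the labels' protocols. The authors deposited log2 expression levels made with Affymetrix Expression Console and RMA, per the submitters' processing notes, with versions and settings not given in the sources used here. RMA gives all arrays one distribution, so levels are relative. Depth does not apply to arrays, and their number limits the precision.

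The 24479 probe sets were named through the platform annotation (23281 with 1 symbol), and 23156 of these were updated from the RefSeq table of GRCm38.p6. The brightest probe set of a gene was kept. Genes with a mean under the 40th percentile (4.44) were left out as dim, so 13967 were tested. Knockout and control were compared with a two-sided test by lmFit and eBayes of limma 3.58.1 in R 4.3.3, over all genes with Benjamini-Hochberg adjustment, with steps tested on simulated data. With 2 arrays against 3, no permutation p can fall below 0.1, so none is given. The members and lists were chosen with earlier results of these data known. Named were all members and other globins, up to 4 genes of each list with the smallest p, the 5 nearest genes by pattern of each member spanning at least 1 log2 unit, and Lrrfip2. Further list members were named for their known role after their values were seen. Alternatives concerned the dim filter, probe sets, variance prior, array weights, normalization, red cell level and each array in turn.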

Additional observations from a re-analysis of the deposited data

How the results depend on the processing

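Hbb-b1 and Bpgm kept their direction and stayed short of the adjusted threshold under every alternative run, 14 and 13 of them. Other filters and variance priors cannot change a direction. Bpgm could not be fitted with the filter at the 60th percentile, which drops it. Bpgm ranged from -1.25 to -0.41 and was smallest with the red cell membrane list as zero. In that setting Hba-x, Hbb-y and Hbb-bh1 turned to 0.31, 0.43 and 0.38, and 27 genes passed the adjusted threshold in place of 0, while the median of all genes shifted by 0.60. Leaving out each array in turn, the number of genes passing ranged from 0 to 983 (9 without knockout replicate 1, 983 without knockout replicate 2). The cause was not tested. In those 2 fits the lone knockout array is assumed to vary like the controls. Lower members ranged from 0 to 7 in the endoderm list (0 with all arrays, 7 without knockout replicate 2, 1 without control replicate 3). They ranged from 2 to 4 in the macrophage and other blood cell list (2 with all arrays, 4 without knockout replicate 1). Signal near the dim level limits Bpgm and Hbb-bs, and signal near the top of the scale limits the embryonic globins.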

Other observations

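Myb and Mpo were picked after their values were seen. Myb, a transcription factor needed for definitive blood formation, was at 5.44 on knockout replicate 1 and between 4.03 and 4.40 on the other 4 arrays. Mpo, an enzyme of myeloid granules, was at 7.67 on knockout replicate 1 and 5.79 on knockout replicate 2, against at most 5.56 in the controls. The same array had the lowest Hbb-b1 level of the 5, at 7.29. Neither gene passed an adjusted p of 0.05 in limma (0.57 for each), and the groups overlapped for Myb. Other genes of blood progenitors had lower knockout means, with differences of -0.44 for Tal1, -0.14 for Gata2 and -0.13 for Lmo2. In the list that holds Mpo, 10 of 12 tested genes were higher and 2 lower, with a median deviation of 0.45 on knockout replicate 1. On that array the deviation was 2.65 for Tyrobp, 1.19 for Fcer1g and -0.38 for C1qa. Elane and S100a8 of the same list did not follow Mpo, with differences of -0.05 and -0.08. Both lay under the dim level and were not tested.

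Tfrc and Bnip3l had higher mean levels in the knockouts, and neither passed an adjusted p of 0.05 in limma (0.57 and 0.494). Tfrc, the transferrin receptor, was at 8.97, 8.98 and 9.32 in the controls and 9.79 and 9.28 in the knockouts, which overlap. Bnip3l was at 9.22, 9.12 and 9.40 in the controls and 10.32 and 9.71 in the knockouts.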
